A study of Mus musculus with 8 samples.

Results

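The ATP-binding cassette (ABC) genes of mouse bone were examined after chemotherapy. They were taken as every protein-coding gene of the deposited table whose symbol is Abc, a subfamily letter from a to g and a number, with or without a final letter, which gave 50 of 55421 genes. Of these, 39 had enough counts to be tested and 11 did not. RNA came from the tibiae and femurs of 8 wild-type (WT) male C57BL/6 mice, 15 weeks old when treated and assigned at random. The vehicle group was 4 mice given saline and the doxorubicin group was 4 mice given 1 intraperitoneal dose of 10 mg/kg doxorubicin at day 0, and all bones were taken at day 30. Both tibiae and both femurs of a mouse were cleaned of soft tissue, cut free of their ends, spun to expel the marrow and pooled into 1 sample, so each library is 1 animal. The RNA thus reports bone a month after a single exposure, with no sample from the days just after it, and a sample mixes all the cells left in the bone.

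ABC proteins use ATP, bound at a pair of nucleotide-binding folds, to move substrates across membranes. The drug pumps among them, P-glycoprotein (Abcb1a and Abcb1b in mice, ABCB1 in humans), the breast cancer resistance protein Abcg2 and the multidrug resistance proteins of the Abcc subfamily, expel chemotherapy drugs from cells, and doxorubicin is a classic substrate of P-glycoprotein. Other members export cholesterol and phospholipids, carry fatty acids into peroxisomes, serve the iron and haem chemistry of mitochondria or gate potassium channels, and the Abce and Abcf subfamilies have no membrane-spanning part and act on ribosomes. In marrow, Abcg2 is known for marking stem cells and early red cell precursors, and Abcb10 for haem synthesis in red cell precursors.

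Promoter sequences are shown for 4 members, because the Abcb1 pair makes P-glycoprotein from neighbouring genes and because Abcg2 and Abcb10 followed red cell markers across the libraries. Each runs 5′ to 3′ on the gene's own strand, from 250 bases before to 50 bases after a RefSeq transcript start, in build GRCm38.p6. Capitals mark the 3 motifs searched on both strands, GATAA (the core read by GATA factors), CCAAT and the GC box GGGCGG, written as their reverse complement where they lie on the other strand.
Abcb1a, chr5:8566841-8567140, plus strand: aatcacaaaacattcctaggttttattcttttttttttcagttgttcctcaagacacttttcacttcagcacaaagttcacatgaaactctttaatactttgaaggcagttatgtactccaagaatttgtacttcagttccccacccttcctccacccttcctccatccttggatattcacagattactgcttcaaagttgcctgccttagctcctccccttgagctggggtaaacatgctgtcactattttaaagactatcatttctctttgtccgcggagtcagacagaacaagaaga
Abcb1b, chr5:8797897-8798196, plus strand: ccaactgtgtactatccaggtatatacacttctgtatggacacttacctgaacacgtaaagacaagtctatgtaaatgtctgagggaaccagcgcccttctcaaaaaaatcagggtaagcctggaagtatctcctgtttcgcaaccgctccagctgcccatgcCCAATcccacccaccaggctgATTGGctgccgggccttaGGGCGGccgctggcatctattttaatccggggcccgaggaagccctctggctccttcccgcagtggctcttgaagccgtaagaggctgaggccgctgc
Abcg2, chr6:58640296-58640595, plus strand: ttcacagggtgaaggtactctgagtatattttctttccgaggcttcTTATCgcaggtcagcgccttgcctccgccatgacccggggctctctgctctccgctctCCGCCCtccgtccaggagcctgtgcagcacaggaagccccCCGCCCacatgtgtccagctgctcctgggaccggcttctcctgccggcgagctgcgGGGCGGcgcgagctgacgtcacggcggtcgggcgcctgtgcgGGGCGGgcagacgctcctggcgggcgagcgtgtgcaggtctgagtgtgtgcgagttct
Abcb10, chr8:123983073-123983372, minus strand: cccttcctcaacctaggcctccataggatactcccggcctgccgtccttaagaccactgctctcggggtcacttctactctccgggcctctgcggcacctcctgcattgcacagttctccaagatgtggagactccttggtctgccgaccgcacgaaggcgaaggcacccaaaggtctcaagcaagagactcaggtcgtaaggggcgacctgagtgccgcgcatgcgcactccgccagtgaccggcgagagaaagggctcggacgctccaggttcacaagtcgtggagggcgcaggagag

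Abcb1b held CCAAT 87 bases and, on the other strand, 66 bases before the start, and a GC box 48 bases before it. The Abcb1a sequence held none of the 3 motifs. It ends at 8567140 on chromosome 5, far upstream of the GENCODE M21 gene, which begins at 8660077. The bases next to that gene start were not searched, so Abcb1a and Abcb1b cannot be compared by these motifs. The Abcg2 sequence, 1 of 3 RefSeq starts of that gene, held GATAA 204 bases before the start and 4 GC boxes, and the windows at the other 2 starts held 0 GATAA. The Abcb10 sequence held none of the 3 motifs. No match overlapped another in these 4 sequences. RefSeq gave 45 such windows for 38 of the 50 members, and GATAA was in 11 of them, CCAAT in 16 and the GC box in 21. Of all 32851 windows in the table, 25.4% held GATAA, 37.4% CCAAT and 35.7% the GC box. A match is a description of the letters only.

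The libraries held between 23699525 and 35747083 counts. Levels are given as CPM, counts scaled to a common library size with TMM, which corrects for library composition, as mean ± SD over 4 mice. Differences are log2 of doxorubicin over vehicle ± SE from edgeR's quasi-likelihood test, with p-values adjusted by the Benjamini-Hochberg method over all 17035 tested genes. Markers of bone cells were present in all libraries, but so were those of other tissues. The summed level of 8 skeletal muscle markers ran from 3665 to 21705 CPM with vehicle, lowest in vehicle 3, and from 11974 to 31213 CPM with doxorubicin. The 8 neutrophil markers ran from 12454 to 22394 CPM and from 10024 to 20629 CPM. Each library was also left out in turn, vehicle 3 and doxorubicin 3 among them. In such mixed tissue, fewer cells of a type and less RNA per cell cannot be told apart.

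No ABC gene passed the test between doxorubicin and vehicle bone. At an adjusted p under 0.05 in edgeR, 0 of 39 members were higher and 0 were lower, beside 0 of 17035 genes in each direction (0%). The smallest adjusted p of a member was 0.856. At an unadjusted p under 0.05, 1 member was higher (Abca8a, 2.56% of 39, where 2.13% of all tested genes were higher) and 0 were lower (3.23% of all tested genes were lower). DESeq2 and limma-voom also called 0 members after adjustment, while DESeq2 called 29 other genes. At an unadjusted p under 0.05, limma-voom gave Abca8a, and DESeq2 gave Abca8a and, lower, Abcg3.

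The differences were small in size as well. The members' log2 differences lay between -0.42 and 0.41. The 95% interval of 36 of the 39 stayed within a 2-fold change in either direction, beside 13943 of all 17035 tested genes. The exceptions were Abca6, Abcc3 and Abcc8, with intervals that reached a little past 2-fold. The median of the members was 0.09, beside 0.04 over all tested genes, and 26 members were above 0, which is 66.7% beside 57.2% of all tested genes. Without vehicle 3, only 17 were above 0 and the median was -0.03. The summed level of the 39 members was 1389 ± 69.3 CPM with vehicle and 1383 ± 25.7 CPM with doxorubicin, and the ranges overlapped.

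**Figure D1:**
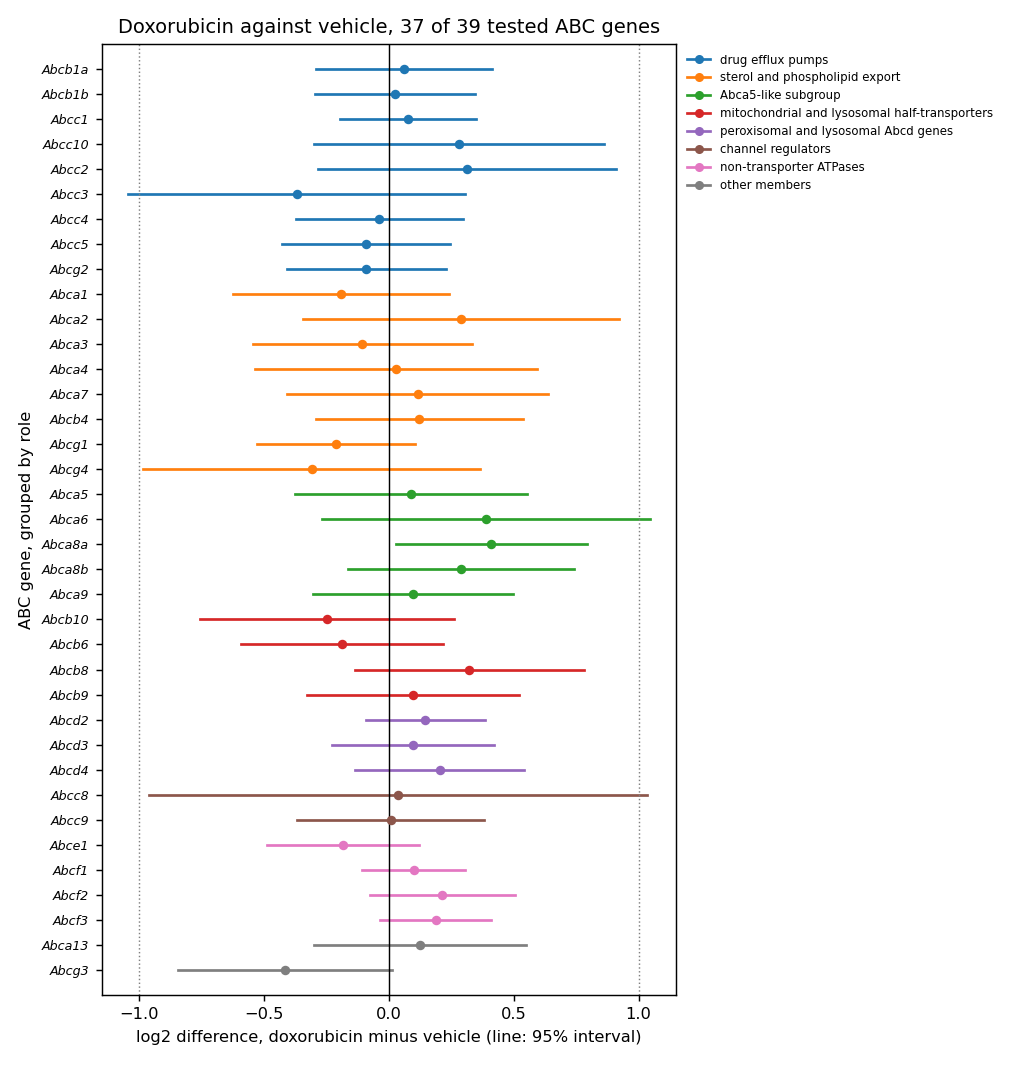
Log2 difference (x axis, doxorubicin minus vehicle) of 37 of the 39 tested ABC genes (y axis, grouped and coloured by role). Points are edgeR estimates from 4 mice a group, lines are 95% intervals and dotted lines mark a 2-fold change. The interval of 1 gene, Abca8a, lies clear of 0, and those of Abca6, Abcc3 and Abcc8 cross a dotted line.

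Among the drug efflux pumps, 9 of 10 listed genes were tested, 5 above and 4 below 0, with a median of 0.02 and 0 past the test. With library size as the only scaling 4 of the 9 were above 0, and without vehicle 3 it was 2. Their summed level was 277 ± 15.1 CPM with vehicle and 266 ± 10.7 CPM with doxorubicin. The pump genes thus stood at overlapping levels in both groups a month after the dose.

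Abcb1a (chr5:8660077-8748575, plus strand, GRCm38) encodes the P-glycoprotein best known from capillaries and gut. It was read at 6.07, 4.67, 4.14 and 5.27 CPM in vehicle 1 to 4 and at 5.74, 4.66, 5.14 and 5.47 CPM in doxorubicin 1 to 4. All 4 doxorubicin values lay inside the vehicle range. The means were 5.04 ± 0.830 and 5.25 ± 0.467 CPM, and the log2 difference was 0.06 ± 0.16 (edgeR adjusted p = 0.940). The 95% interval of the fold ran from 0.817 to 1.33, so a doubling lies outside it. Abcb1b (chr5:8798147-8866315, plus strand), its neighbouring paralog, was read at 10.98, 13.8, 10.3 and 10.2 CPM with vehicle and at 10.5, 11.4, 10.5 and 13.5 CPM with doxorubicin. One library in each group, vehicle 2 and doxorubicin 4, stood above the rest, and the groups overlapped. The log2 difference was 0.02 ± 0.14 (edgeR adjusted p = 0.971), with a fold interval from 0.814 to 1.27. Reads that fit both paralogs may be divided between them, and with their counts summed the pair stood at 16.3 ± 1.79 CPM with vehicle and 16.7 ± 1.54 CPM with doxorubicin (log2 difference 0.04 ± 0.12, edgeR adjusted p = 0.954).

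Abcg2 (chr6:58584523-58695676, plus strand), a half-transporter that works as a dimer, was read at 49.1, 56.0, 68.1 and 58.9 CPM with vehicle and at 50.6, 50.8, 68.0 and 48.6 CPM with doxorubicin. Doxorubicin 3 was far above the other 3 doxorubicin libraries and level with the highest vehicle library. The means were 58.0 ± 7.88 and 54.5 ± 9.06 CPM, the log2 difference was -0.09 ± 0.14 (edgeR adjusted p = 0.897), and the fold interval ran from 0.753 to 1.17. Without doxorubicin 3 the log2 difference was -0.24. Abcc1 (chr16:14361558-14475737, plus strand), which exports drugs and glutathione conjugates, was read at 27.8, 26.0, 22.2 and 29.9 CPM with vehicle and at 27.4, 25.2, 27.9 and 31.3 CPM with doxorubicin. The groups overlapped, with means of 26.5 ± 3.25 and 27.9 ± 2.54 CPM. Its log2 difference was 0.08 ± 0.12 (edgeR adjusted p = 0.897), with a fold interval from 0.874 to 1.27, and it turned to -0.04 without vehicle 3.

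The other Abcc pumps gave wider or smaller differences in both directions. Abcc5, an exporter of cyclic nucleotides and nucleotide analogues, was read at 168, 136, 125 and 139 CPM with vehicle and at 157, 148, 105 and 123 CPM with doxorubicin, a log2 difference of -0.09 ± 0.15. Abcc4, which exports cyclic AMP and prostaglandins, was read at 21.6, 20.5, 20.4 and 22.7 CPM with vehicle and at 16.3, 17.8, 24.9 and 23.9 CPM with doxorubicin. Its 4 doxorubicin values lay outside the narrow vehicle range, 2 below it and 2 above it, and the log2 difference was -0.04 ± 0.15. Abcc3, an exporter of bile acids and glucuronides, spread from 3.55 to 10.8 CPM with vehicle and 4.52 to 6.36 CPM with doxorubicin, a log2 difference of -0.37 ± 0.30 (edgeR adjusted p = 0.856). Without vehicle 2 that difference was -0.60, and without vehicle 4 it was -0.12. The low-level pumps Abcc10 and Abcc2, the latter the bile canalicular conjugate pump of liver, had log2 differences of 0.28 ± 0.26 and 0.31 ± 0.27. Abcb5, a P-glycoprotein relative, was the member of this list that was not tested, with 1 count over all libraries.

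**Figure D2:**
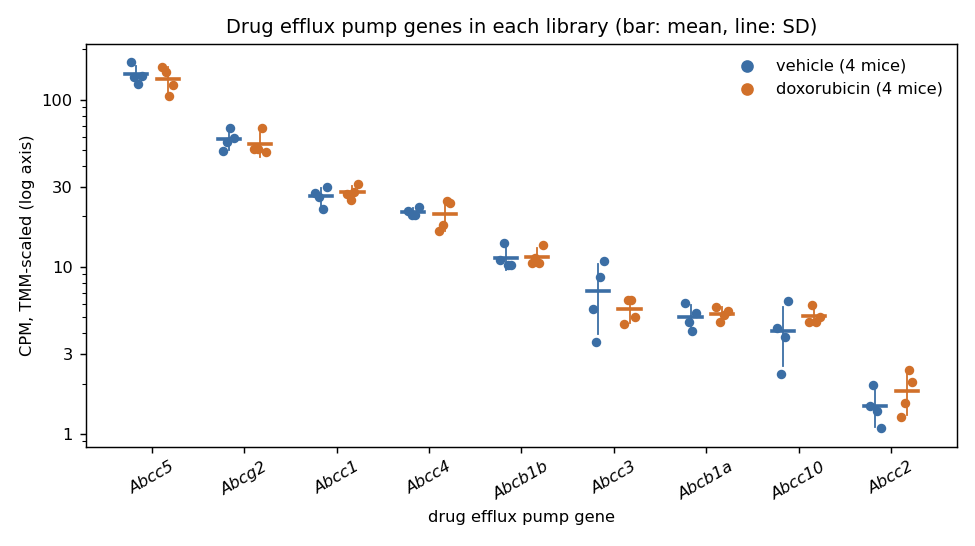
Level of the 9 tested drug efflux pump genes (x axis) in CPM (y axis, log scale) in each library. Points are single mice, bars the mean and vertical lines the SD of 4 mice, blue for vehicle and orange for doxorubicin. The groups overlap for each of the 9 genes, from Abcc5 at 142 ± 18.2 CPM with vehicle down to Abcc2 at 1.47 ± 0.366 CPM.

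Of the exporters of sterols and phospholipids, 8 of 11 listed were tested, 4 above and 4 below 0, and 0 passed the test. Abca1 loads cholesterol onto apolipoprotein A-I and Abcg1 passes it to mature high-density lipoprotein, and both are classic targets of the liver X receptors. Abca1 was read at 96.7, 77.5, 88.6 and 79.9 CPM with vehicle and at 89.1, 96.2, 50.5 and 64.0 CPM with doxorubicin. Doxorubicin 1 and 2 lay within the vehicle range and doxorubicin 3 and 4 below it, and the log2 difference was -0.19 ± 0.19 (edgeR adjusted p = 0.869). With the mean neutrophil and erythroid marker level as a covariate (the marrow covariate) the Abca1 difference was -0.38, and without doxorubicin 3 it was -0.07. Abcg1 was read at 15.1, 12.8, 17.95 and 17.6 CPM with vehicle and at 11.9, 15.2, 14.7 and 13.1 CPM with doxorubicin, with overlapping groups and a log2 difference of -0.21 ± 0.14 (edgeR adjusted p = 0.856).

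Abcg4, the brain-enriched relative of Abcg1, was read at 10.7, 8.21, 10.3 and 19.4 CPM with vehicle and at 8.09, 8.14, 15.2 and 7.82 CPM with doxorubicin. One library in each group, vehicle 4 and doxorubicin 3, stood well above the rest, and the log2 difference was -0.31 ± 0.30. Abcb4, the phosphatidylcholine floppase of bile that adjoins Abcb1b (chr5:8893717-8959231), was read at 91.3, 85.5, 57.8 and 92.6 CPM with vehicle and at 107, 66.4, 85.5 and 97.6 CPM with doxorubicin, lowest in vehicle 3. Its log2 difference was 0.12 ± 0.19, and -0.05 without vehicle 3. Abca7, a phospholipid exporter of myeloid cells, stood at 57.2 ± 20.9 and 62.0 ± 9.96 CPM, and Abca2, a sterol transporter of myelin-forming cells, at 19.1 ± 9.31 and 23.4 ± 3.37 CPM. Their log2 differences were 0.12 ± 0.23 and 0.29 ± 0.28. Abca3, the surfactant lipid pump of lung, and Abca4, the retinoid flippase of the retina, had -0.11 ± 0.20 and 0.03 ± 0.25, the latter at 0.709 ± 0.169 CPM with vehicle.

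The Abca5-like genes lie side by side on the minus strand of chromosome 11, from Abca8b (chr11:109932190-109995845) through Abca8a (chr11:110025634-110095978), Abca9 (chr11:110100749-110168196) and Abca6 (chr11:110176820-110251776) to Abca5 (chr11:110269369-110337716). They are lipid transporters whose substrates are little known. Each of the 5 was tested and above 0, with a median of 0.29, and 0 passed the adjusted test. With the marrow covariate, 3 of the 5 were above 0, and without doxorubicin 1 their median was 0.08. Abca8a had the smallest p of any member. It was read at 35.5, 31.1, 44.4 and 32.0 CPM with vehicle and at 51.8, 58.9, 36.4 and 43.0 CPM with doxorubicin. Doxorubicin 1 and 2 were above the vehicle range, and doxorubicin 3 and 4 lay inside it. The means were 35.7 ± 6.07 and 47.5 ± 9.90 CPM, and the log2 difference was 0.41 ± 0.17 (unadjusted p = 0.0379, edgeR adjusted p = 0.856). It was 0.26 without doxorubicin 2 and 0.32 with the marrow covariate, and in both fits the unadjusted p was no longer under 0.05.

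The neighbours of Abca8a gave smaller or less even differences. Abca8b was read at 11.5, 14.9, 12.1 and 14.3 CPM with vehicle and at 22.2, 15.3, 10.8 and 16.3 CPM with doxorubicin, a log2 difference of 0.29 ± 0.20 that was 0.08 without doxorubicin 1. Abca9 was read at 44.6, 38.4, 42.7 and 34.7 CPM with vehicle and at 45.9, 56.4, 30.3 and 38.8 CPM with doxorubicin, a log2 difference of 0.10 ± 0.18 that turned to -0.10 without doxorubicin 2 and to -0.06 with the marrow covariate. Abca6 stood at 8.17 ± 2.48 and 10.7 ± 3.87 CPM and Abca5, a lysosomal member, at 9.45 ± 1.36 and 10.0 ± 2.68 CPM. With the paralog counts of Abca8a and Abca8b summed, the log2 difference was 0.38 ± 0.16 (edgeR adjusted p = 0.856). The 8 fibroblast markers were also above 0 in 8 of 8, with summed levels of 1178 to 1571 CPM with vehicle and 1072 to 2260.2 CPM with doxorubicin, none of them at 0. Across the 8 libraries, Abca8a gave Pearson's r = 0.575 with these markers (exact permutation adjusted p = 0.219). The part of the markers in the Abca8a and Abca8b differences was not tested.

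The mitochondrial and lysosomal half-transporters pair up to form whole pumps. Abcb10 (chr8:123952459-123983122, minus strand) was read at 75.6, 65.7, 91.1 and 111 CPM with vehicle and at 57.5, 65.1, 107 and 59.2 CPM with doxorubicin. Doxorubicin 1, 2 and 4 were below all 4 vehicle libraries, and doxorubicin 3 was near the top of the vehicle range. The log2 difference was -0.25 ± 0.23 (edgeR adjusted p = 0.860), -0.52 without doxorubicin 3 and -0.13 without vehicle 4. Doxorubicin 3 also had the highest erythroid marker level of the 8 libraries. Abcb8, a mitochondrial member tied to iron export and to a potassium channel, was read at 8.36, 6.44, 6.22 and 12.1 CPM with vehicle and at 10.8, 9.94, 9.81 and 10.9 CPM with doxorubicin. The doxorubicin values were close together and inside the vehicle range, and the log2 difference of 0.32 ± 0.20 ran from 0.17 without vehicle 3 to 0.53 without vehicle 4. Abcb6, a porphyrin transporter, stood at 20.4 ± 4.64 and 17.9 ± 2.93 CPM, and Abcb9, a lysosomal peptide transporter, at 5.81 ± 1.495 and 6.23 ± 0.426 CPM.

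The Abcd genes carry long-chain fatty acids into peroxisomes, except Abcd4, which handles vitamin B12 in lysosomes. Abcd2, a peroxisomal member of fat and brain, was read at 42.5, 49.97, 46.2 and 40.5 CPM with vehicle and at 45.9, 47.0, 50.2 and 54.9 CPM with doxorubicin. Doxorubicin 3 and 4 were above the vehicle range and doxorubicin 1 and 2 inside it, and the log2 difference was 0.15 ± 0.11 (edgeR adjusted p = 0.856). Abcd3 had a log2 difference of 0.10 ± 0.15 and Abcd4 had 0.20 ± 0.15.

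Abcc9 and Abcc8 are sulphonylurea receptors, the regulatory subunits of ATP-sensitive potassium channels, Abcc9 in muscle and mural cells and Abcc8 in endocrine cells and neurons. Abcc9 was read at 84.4, 70.8, 56.8 and 78.9 CPM with vehicle and at 82.9, 79.0, 53.3 and 77.0 CPM with doxorubicin. Vehicle 3 and doxorubicin 3 were the low libraries of their groups, and the log2 difference was 0.01 ± 0.17 (edgeR adjusted p = 0.995). Abcc8 stood at 0.627 ± 0.335 and 0.627 ± 0.151 CPM, a level at which its log2 difference of 0.04 ± 0.45 was the least precise of the family.

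Abce1 frees and recycles ribosomes, Abcf1 takes part in the start of translation, and Abcf2 and Abcf3 are related cytosolic ATPases. Of these 4, 3 were above 0 and 1 below, and 0 passed the test. Abcf3 (chr16:20548577-20561379, plus strand) was read at 25.5, 27.0, 22.6 and 26.5 CPM with vehicle and at 29.5, 28.9, 27.1 and 30.2 CPM with doxorubicin. It was the 1 member of 39 (2.56%) whose groups did not overlap upward, beside 1.64% of all tested genes, and 0 members did so downward, beside 1.95%. The means were 25.4 ± 1.99 and 28.9 ± 1.303 CPM, and the log2 difference was 0.19 ± 0.10 (edgeR adjusted p = 0.856), or 0.10 without vehicle 3. Abcf2 was read at 42.1, 43.7, 31.2 and 44.3 CPM with vehicle and at 49.1, 44.2, 43.4 and 50.4 CPM with doxorubicin. Vehicle 3 was far below the other 3 vehicle libraries, and the log2 difference of 0.21 ± 0.13 was 0.07 without it. Abcf1 stood at 72.3 ± 4.75 and 77.5 ± 3.10 CPM. Abce1 was read at 123, 148, 135 and 98.9 CPM with vehicle and at 112, 105, 123 and 103 CPM with doxorubicin, a log2 difference of -0.19 ± 0.14.

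The remaining tested members were Abcg3 and Abca13. Abcg3 (chr5:104935057-104982718, minus strand), a rodent relative of Abcg2, had the lowest log2 difference of the family. It was read at 23.5, 25.3, 40.7 and 34.9 CPM with vehicle and at 21.5, 28.9, 22.9 and 20.2 CPM with doxorubicin. Doxorubicin 1, 3 and 4 were below the vehicle range and doxorubicin 2 inside it. The means were 31.1 ± 8.13 and 23.3 ± 3.84 CPM, and the log2 difference was -0.42 ± 0.19 (unadjusted p = 0.0564, edgeR adjusted p = 0.856). It was -0.27 with the skeletal muscle covariate, the value nearest to 0 of those computed. Abca13, the longest ABC protein, was read at 40.5, 40.5, 44.9 and 39.4 CPM with vehicle and at 31.8, 35.7, 58.6 and 54.1 CPM with doxorubicin. The vehicle values were close together, with doxorubicin 1 and 2 below and doxorubicin 3 and 4 above them, and the log2 difference was 0.12 ± 0.19, or -0.05 without doxorubicin 3.

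By subfamily, the 4 tested Abcg genes (Abcg1, Abcg2, Abcg3 and Abcg4) were all below 0, with a median of -0.26, and 9 of the 11 tested Abca genes were above 0, with a median of 0.12. With library size as the only scaling these counts were 0 of 4 and 8 of 11 above 0, and without vehicle 3, 0 of 4 and 7 of 11. For Abcg2 the direction turned with either covariate, to 0.01 for marrow. The 11 members without a test held at most 5 counts in any library, among 224677040 counts in all. They were Abca12 of skin, the bile salt pump Abcb11, the sterol pair Abcg5 and Abcg8 of gut and liver, and Abca14, Abca15, Abca16, Abca17, Abcb5, Abcc6 and Abcc12. Abca15 and Abca16 had 0 counts, which allows a level of up to 0.0134 CPM over the 8 libraries, counting error only.

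**Figure D3:**
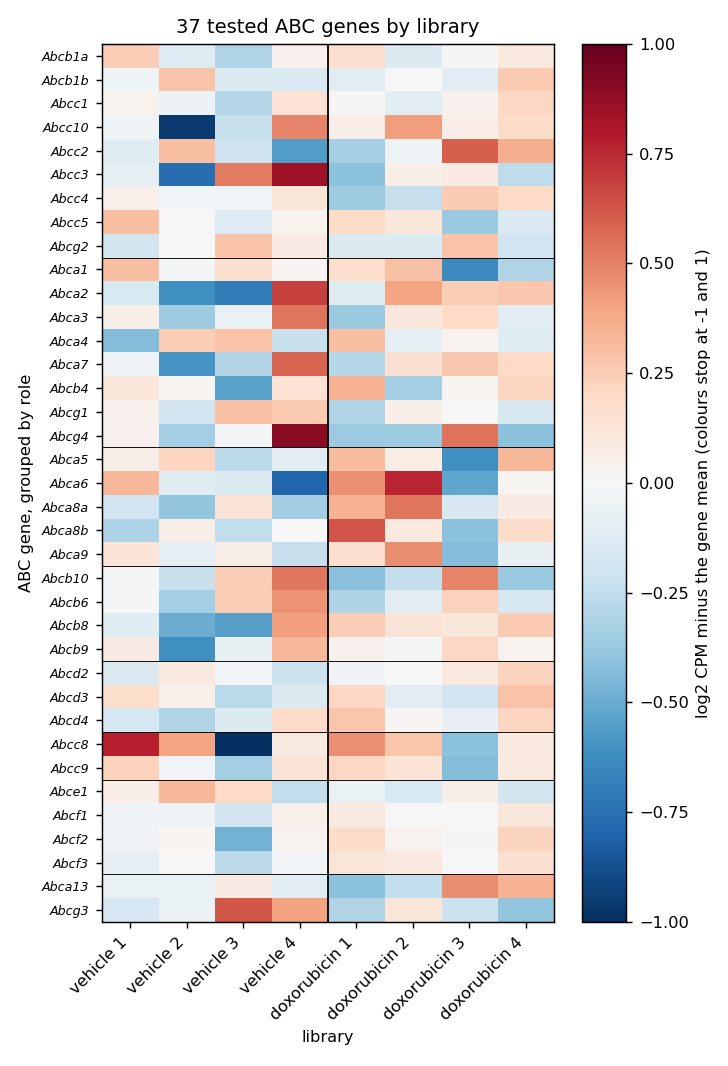
Log2 CPM minus the gene's mean over the 8 libraries (colour) for 37 of the 39 tested ABC genes (y axis, grouped by role as in the plot of differences) in each library (x axis, vehicle left and doxorubicin right of the line). Colours stop at −1 and 1. Vehicle 4 holds the highest level of 10 of these genes and vehicle 3 the lowest of 10.

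Levels of different genes were compared as CPM per kb of exon, averaged over the 8 libraries. On this scale the highest members were Abce1 at 19.7 ± 2.81 CPM per kb, Abcb10 at 18.4 ± 4.96, Abcf1 at 16.99 ± 1.05, Abcf2 at 16.9 ± 2.25 and Abcc5 at 12.9 ± 1.87. These are 3 cytosolic ATPases, a mitochondrial haem-linked transporter and 1 pump. Among the pumps, Abcg2 stood at 6.90 ± 0.991 CPM per kb, Abcc4 at 3.29 ± 0.460, Abcc1 at 1.80 ± 0.186, Abcb1b at 1.43 ± 0.182 and Abcb1a at 0.939 ± 0.116. The P-glycoprotein genes were thus ranked 30 and 33 of 39 on this scale, and Abcg2 was ranked 14. The exon length joins the exons of all annotated transcripts of a gene. It was 15.1 kb for Abcc1, 7.99 kb for Abcb1b and 5.48 kb for Abcb1a. The order therefore depends on the annotation as well as on the counts. The lowest tested were Abcc2 at 0.192 ± 0.0528 CPM per kb, Abcc8 at 0.0775 ± 0.0297 and Abca4 at 0.0597 ± 0.0107. Neighbours in the order overlapped across libraries everywhere except from Abcc10 to Abcc2 and from Abcc2 to Abcc8.

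**Figure D4:**
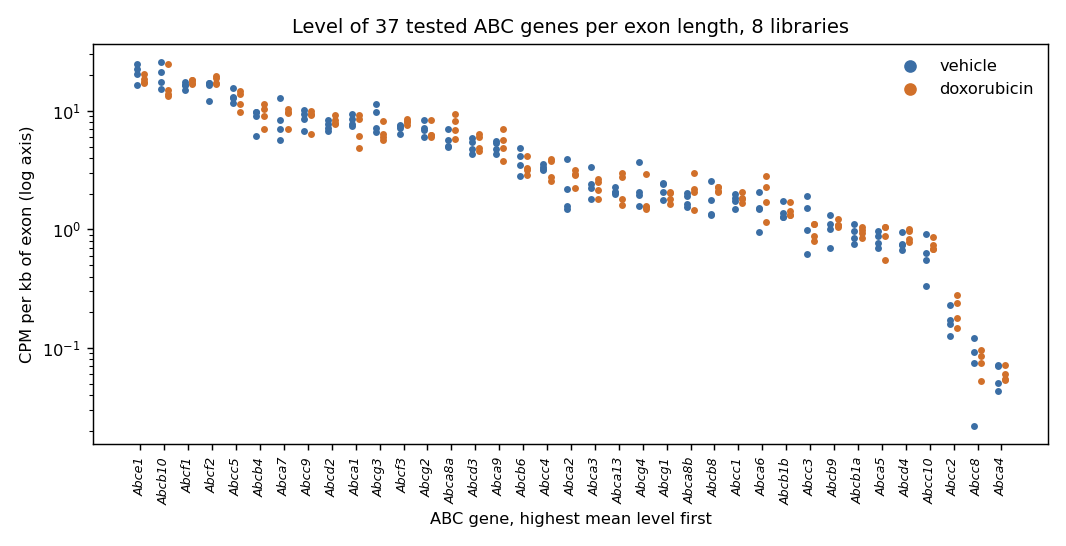
Level of 37 of the 39 tested ABC genes in CPM per kb of exon (y axis, log scale), genes ordered by their mean over 8 libraries (x axis). Points are single mice, blue for vehicle and orange for doxorubicin. The order falls from Abce1 at 19.7 ± 2.81 CPM per kb to Abca4 at 0.0597 ± 0.0107, with the only clear steps on either side of Abcc2.

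Some members were compared with marker genes of the cells known to express them, as Pearson's r of log2 CPM with the mean log2 CPM of 8 markers over the 8 libraries, with exact permutation of the pairings, two-sided, and adjustment over 12 pairs. Each of these markers was tested, with none at 0. The members and markers were chosen with earlier results of these data known, so the p-values describe chosen pairs. Abcb10 followed the erythroid markers most closely, with r = 0.970 (exact permutation adjusted p = 0.00446), rho = 0.929 (adjusted p = 0.0134) and r = 0.965 within groups. Without the 2 libraries farthest from the median marker level, doxorubicin 3 and vehicle 4, r was 0.938. Abcg2 also followed the erythroid markers, with r = 0.891 (exact permutation adjusted p = 0.00887), rho = 0.857 (adjusted p = 0.0257), r = 0.892 within groups and r = 0.899 without the same 2 libraries (exact permutation adjusted p = 0.0583 over the 6 left). The erythroid markers were below 0 in 8 of 8, with summed levels of 1644 to 2667 CPM with vehicle and 1283 to 2771 CPM with doxorubicin. Their part in the Abcb10 and Abcg2 differences was not tested, and with the marrow covariate these were -0.10 and 0.01.

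Abca13 followed the neutrophil markers, with r = 0.905 (exact permutation adjusted p = 0.00744), rho = 0.952 (adjusted p = 0.0134), r = 0.933 within groups and r = 0.795 without doxorubicin 1 and 3 (exact permutation adjusted p = 0.0833 over the 6 left). Abcg1 followed the macrophage markers, with r = 0.898 (exact permutation adjusted p = 0.00744), rho = 0.857 (adjusted p = 0.0257), r = 0.862 within groups and r = 0.927 without vehicle 1 and 3. The macrophage markers were below 0 in 7 of 8, with summed levels of 286 to 454 CPM with vehicle and 271 to 373 CPM with doxorubicin, and their part in the Abcg1 difference was not tested. Of these markers, Marco (0.217 to 6.48 CPM over the libraries) and Vsig4 (0.461 to 3.76 CPM) were low and widely spread. In the mean log2 CPM they weighed as much as the others, and r without them was not computed. Abcb4 followed the skeletal muscle markers, with r = 0.886 (exact permutation adjusted p = 0.00887), rho = 0.833 (adjusted p = 0.0308), r = 0.881 within groups and r = 0.932 without vehicle 3 and doxorubicin 3.

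The other 7 pairs did not pass the adjusted test on r. Abcc9 with the mural markers gave r = 0.688 (exact permutation adjusted p = 0.120), while its rho of 0.857 did pass (exact permutation adjusted p = 0.0257). Abca8a and Abca9 with the fibroblast markers gave r = 0.575 and 0.437 (exact permutation adjusted p = 0.219 and 0.372), with rho = 0.548 and 0.643 (adjusted p = 0.256 and 0.165). Abca1 with macrophage markers gave r = 0.499 and rho = 0.476 (exact permutation adjusted p = 0.321 and 0.324). Abcc4 with megakaryocyte markers gave r = 0.315 and rho = -0.143 (exact permutation adjusted p = 0.541 and 0.820), Abcb1a with endothelial markers r = 0.197 and rho = 0.333 (exact permutation adjusted p = 0.698 and 0.513), and Abcd2 with adipocyte markers r = 0.0395 and rho = 0.0238 (exact permutation adjusted p = 0.929 and 0.977). Within groups, r was 0.787 for Abcc9, 0.322 for Abca8a, 0.448 for Abca9, 0.357 for Abca1, 0.304 for Abcc4, 0.146 for Abcb1a and -0.513 for Abcd2. Without the 2 libraries farthest from the median, r was 0.801 for Abcc9, 0.836 for Abca8a, 0.741 for Abca9, 0.345 for Abca1, -0.348 for Abcc4, 0.619 for Abcb1a and 0.281 for Abcd2. Over the 6 left, the exact permutation adjusted p was 0.0611 for Abcc9 and for Abca8a, 0.144 for Abca9 and larger for the rest.

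**Figure D5:**
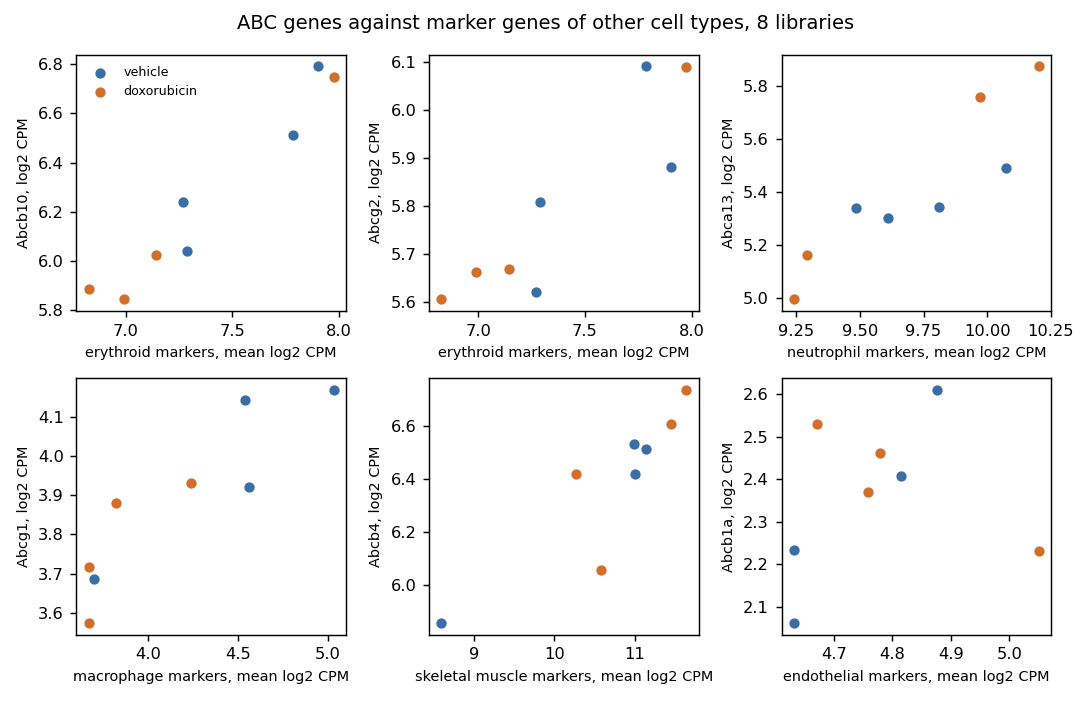
Log2 CPM of 6 ABC genes (y axes) against the mean log2 CPM of 8 marker genes of a cell type (x axes). Each point is 1 library, blue for vehicle and orange for doxorubicin. Abcb10, Abcg2, Abca13, Abcg1 and Abcb4 are higher where their markers are higher (r between 0.886 and 0.970). Abcb1a gave r = 0.197 with the endothelial markers, and 0.619 without doxorubicin 2 and vehicle 3 (exact permutation adjusted p = 0.254 over the 6 left).

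Of 41 further genes around the family, 35 were tested, 26 above and 9 below 0, with a median of 0.13 and 0 past the adjusted test. Of all tested genes, 57.2% were above 0, with a median of 0.04. Tap1 and Tap2, the ABC half-transporters that load peptides for antigen presentation and fall outside the symbol rule, had log2 differences of 0.31 ± 0.16 and 0.10 ± 0.19. Cftr, the chloride channel of the family, had 11 counts in all and was not tested. Of the receptors and factors that regulate ABC genes, 10 of the 11 tested were above 0 and 0 passed. The liver X receptor genes Nr1h3 and Nr1h2, which drive Abca1 and Abcg1, had 0.09 ± 0.12 and 0.24 ± 0.14, and Nfe2l2, the factor of the oxidative stress response that drives several Abcc genes, stood at 78.8 ± 9.97 and 67.6 ± 4.96 CPM, -0.22 ± 0.12. The drug-sensing receptor genes Nr1i2 and Nr1i3, known regulators of Abcb1a in liver, had 2 and 8 counts in all.

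Among partners of single members, Pex19, the chaperone that brings Abcd proteins to the peroxisome, was read at 33.0, 32.0, 28.0 and 34.3 CPM with vehicle and at 39.3, 37.2, 35.2 and 42.4 CPM with doxorubicin. Its groups did not overlap, as for 1.64% of all tested genes upward, and the log2 difference was 0.28 ± 0.11 (unadjusted p = 0.0270, edgeR adjusted p = 0.856). Pex19 is given because its p was the smallest of the 35 tested genes around the family. Of these 35, 1 was higher at an unadjusted p under 0.05, beside 2.13% of all tested genes. The channel pores partnered with Abcc8 and Abcc9 had 0.73 ± 0.46 for Kcnj11 and -0.15 ± 0.16 for Kcnj8. Of the apolipoprotein and sterol genes 6 of 9 tested were above 0, and of the solute carriers and vault genes tied to drug handling 5 of 9, with 0 past the test in either list. Slc22a16, a carrier that takes doxorubicin into cells, had 1 count in all and was not tested.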

How the data were processed

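Per the labels' protocols, a stranded poly-A kit and adaptors with molecular identifiers gave the 8 libraries. The deposited values were read as estimated counts per gene from the authors, all whole numbers already. Per the submitters' processing notes, the tools were STAR 2.5.3a (alignment) and RSEM 1.3.0 (estimated counts, which can share reads among paralogs), and the build was GRCh38. That build is of the human genome, although the gene identifiers are murine. Neither the annotation release nor the use of strand or of molecular identifiers is given in the sources used here. Reads are therefore not taken as independent molecules. All 50 members matched GENCODE M21 (GRCm38) with their version, which gave positions and exon lengths.

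Genes were kept by filterByExpr (minimum count 10, minimum total 15), scaled by TMM and tested by edgeR 4.0.16 in R 4.3.3 (robust quasi-likelihood, two-sided, group as the 1 factor). The biological coefficient of variation was 0.219, so for members with many counts precision rests mainly on having 4 mice a group rather than on depth. For low members such as Abcc8, with 7 to 26 counts a library, counting error also limits it. The SE comes from the F statistic. Alternatives were DESeq2 1.42.0, limma-voom (limma 3.58.1), other scalings and filters, a replicate block, 2 covariates, summed paralogs and each library left out, 18 in all. The test was run on simulated data first.

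The ABC genes, their roles, the markers and the related genes were chosen with earlier results of these data known. The rule named 24 members: 4 drug pumps, Abca1 and Abcg1, the 6 smallest p in each direction, the 5 highest levels per kb and the members set against markers. Other members named were chosen to complete their role group. The values of 2 tested members are not reported here, although both are in the counts and medians over the 39.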

Additional observations from a re-analysis of the deposited data

Results flagged for a closer look

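In 4 of 74 groups of 4 libraries (37 members, 2 groups each), 1 library stood apart from the other 3 by Dixon's test at the 95% level, which chance gives in about 1 group in 20. Doxorubicin 3 was the high library for 3 of them. Abcb10 was at 107 CPM there and at most 65.1 in the other doxorubicin libraries. Abcg2 was at 68.0 CPM, with 50.8 next, and Abcg4 at 15.2 CPM, with 8.14 next. Abcf2 was low in vehicle 3, at 31.2 CPM with 42.1 next. Doxorubicin 3 had the highest summed erythroid marker level of the 8 libraries, vehicle 3 the highest summed neutrophil marker level and also the lowest summed skeletal muscle marker level, and the part of these in the values above was not tested.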

How the results depend on the processing

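Under the 18 alternatives, 0 members passed the adjusted test in any, and the adjusted p of the 24 named members was at least 0.385. The members higher at an unadjusted p under 0.05 were 1 as reported, 0 with library size as the only scaling, 0 with the marrow covariate and 0 to 2 with a library left out. Those lower were 0 as reported, 1 without the filter, 1 with DESeq2, 1 with the marrow covariate (Abca1) and 0 to 2 with a library left out. Abca8a lost its unadjusted p under 0.05 with library size only, the block, the marrow covariate and without vehicle 1, 2 or 4 or doxorubicin 1 or 2. The median log2 difference was 0.0015 with the muscle covariate and ran from -0.026 (without vehicle 3) to 0.115 with a library left out, and the members above 0 from 17 to 25.

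Direction held in all settings for 15 of the 24 named members. Abcc9 turned to -0.00672 with DESeq2 size factors, -0.00672 with DESeq2, -0.0553 with library size only, -0.00564 without the filter, -0.000644 with limma-voom, -0.142 with the marrow and -0.111 with the muscle covariate. Library size only turned Abcb1b to -0.0135. The marrow covariate turned Abcb1b to -0.00684, Abca9 to -0.0568, Abcc4 to 0.0265 and Abcg2 to 0.0147, and the muscle covariate turned Abcb1a to -0.0218, Abcb1b to -0.0189, Abcb4 to -0.0189 and Abcg2 to 0.00154. With a library left out, the ranges that crossed 0 were -0.133 to 0.105 for Abcc9, -0.0657 to 0.163 for Abcb1a, -0.0633 to 0.117 for Abcb1b, -0.0530 to 0.209 for Abcb4, -0.0377 to 0.110 for Abcc1, -0.163 to 0.0402 for Abcc4, -0.0959 to 0.208 for Abca9 and -0.0492 to 0.240 for Abca13. The cause was not tested.

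Without the 2 libraries farthest from the median marker level, 6 remain, and r was 0.795 for Abca13 (exact permutation adjusted p = 0.0833), 0.899 for Abcg2 (exact permutation adjusted p = 0.0583) and -0.348 for Abcc4. The labels do not say that replicate numbers pair the mice, and correlations between so few libraries cannot decide it. The deviations of same-numbered libraries correlated at 0.317, -0.248, 0.415 and 0.0821. Those of differently numbered libraries ran from -0.403 to 0.226. With the number as a replicate block, 0 members were higher at an unadjusted p under 0.05 and 26 were above 0. With 4 mice a group, the 95% interval of the fold lay clear of no change for 1 of the 39 members and reached past 2-fold for 3.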

Other observations

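The spread between mice varied among the ABC genes. The median coefficient of variation of the 39 members was 16.5% with vehicle and 16.4% with doxorubicin, beside 17.7% and 16.1% over all tested genes, and it was larger with vehicle for 24 members (61.5%, beside 56.5% of all tested genes). The steadiest member with doxorubicin was Abcf1, the translation factor, at a coefficient of 4.00%, and 6.56% with vehicle. Abcb8 varied by 32.7% with vehicle and 5.29% with doxorubicin, and Abca2 by 48.7% and 14.4%, whereas Abcc4 varied by 5.05% and 20.9% and Abca13 by 5.89% and 29.4%. None of these differences in spread was tested. Of 37 members, vehicle 4 held the highest level of 10, Abca2, Abca7 and Abcg4 among them, and vehicle 3 the lowest of 10.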
